A study of Arabidopsis thaliana with 8 samples.

Results

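The genes described here are 26 Arabidopsis thaliana transcription factors that carry a family symbol in the annotation of the array's probe sets. They were chosen by name: the symbol of a probe set given to 1 gene had to start with WRKY, NAC, MYB, BZIP, BHLH, ERF, TCP or HB followed directly by digits, and WRKY53 was left out. The 26 genes are 14 bZIP, 5 WRKY and 5 bHLH genes, NAC014 and TCP15, out of 13356 genes with a named probe set. Among probe sets given to 1 gene, the annotation holds no MYB, ERF or HB symbol of this form (0 genes each). These 3 of the 8 families are therefore not described. Each of the 26 had a single probe set.

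RNA was measured on 8 single-colour Affymetrix arrays of 14-day-old seedlings, 2 arrays in each of 4 groups. Whole seedlings, Wild Type or arr1,10,12 mutant, went into liquid MS medium for 1 h, which held either the cytokinin benzyladenine (BA) at 10 µM or DMSO as the vehicle. ARR1, ARR10 and ARR12, for which the mutant is named, are type-B response regulators, which switch on cytokinin target genes, and the labels name no alleles. The plants were grown on sucrose medium in continuous light, and the tissue label reads seedling although the treatment protocol keeps only shoots. Whether both samples of a group came from separate cultures is not stated, so the p-values reflect no more than the spread of these samples, which may be technical. In whole shoots, fewer cells of a type and less RNA per cell cannot be told apart.

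WRKY, bZIP, bHLH, NAC and TCP proteins are plant transcription factor families, each named for its DNA-binding domain or its first members. WRKY proteins bind W boxes and act in defence, senescence and phosphate nutrition. Group S bZIPs act in carbon and amino acid balance, BZIP17, BZIP28 and BZIP60 carry endoplasmic reticulum stress to the nucleus, and several bHLHs form the cascade that answers iron deficiency. Cytokinin reaches transcription through the type-B response regulators within minutes, and the type-A response regulators are among its first targets.

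A deposited value is a linear ratio without a unit. For 19 of the 26 genes it is relative to the gene's own median over the 8 arrays. The other 7 (WRKY42, BZIP24, BZIP34, bZIP42, bZIP43, bZIP48 and bZIP58) have medians of 0.516 to 0.869 and were apparently divided by a common floor for dim probe sets. A value can therefore be compared between arrays and not between genes, and the labelled tissue could not be checked by the level of its markers.

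Mutant DMSO replicate 1 stood apart. Over 6 pairs of 5′ and 3′ control probe sets (GAPDH, ubiquitin and actin), the relative value at the 5′ end was 0.352 of that at the 3′ end. The other 7 arrays were at 0.993 to 1.11. The 25S ribosomal RNA control was at 197 on replicate 1. Mutant DMSO replicate 2 had the next highest value of this control, 3.48, against 0.666 to 1.44 on the arrays of the other groups. In 17.9% of probe sets replicate 1 lay over 2-fold away from replicate 2, against 0.747% to 3.34% between the arrays of the other groups. Among the 26 genes it differed more than 2-fold from replicate 2 in 10, with 8 lower and 2 higher. The lower ones were BZIP61, BHLH101, WRKY22, bZIP52, WRKY47, bHLH121, TCP15 and NAC014, and the higher ones bHLH104 and bZIP19. No gene of the 26 differed so between the 2 arrays of any other group. This array also carries a file-name prefix of its own, the other 3 mutant arrays share another and the 4 wild-type arrays share one that no mutant array has. The values below are those of 7 arrays without it, with the 8-array result beside each count of the 26 genes that passed. With these 7, replicate 2 alone stands for the mutant under DMSO, and its spread is taken to be that of the other arrays. The 2 genotypes share no file-name prefix, so a difference between genotypes and one between prefixes cannot be told apart. What a prefix stands for is not stated.

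**Figure D1:**
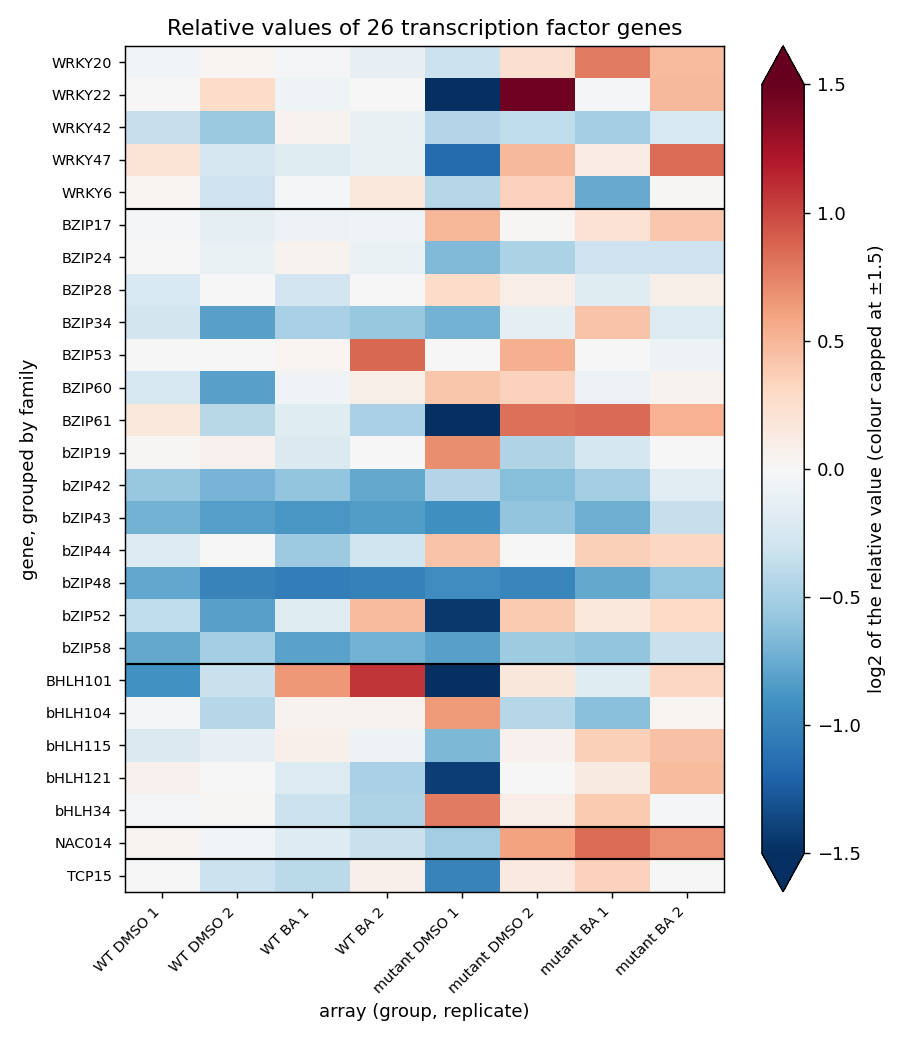
Relative value (log2, colour) of the 26 genes (rows, by family) on each of the 8 arrays (columns). Colours are capped at both ends and can be compared along a row only. Mutant DMSO replicate 1 is the column that departs most from its group mate, with BZIP61 at 0.0944 against 1.78 and BHLH101 at 0.100 against 1.12.

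The first comparison asks which of these genes respond to cytokinin within 1 h in wild type. Of the 26, only BHLH101 did so past the threshold. On the 7 arrays other than mutant DMSO replicate 1, relative values of the 26 ranged from 0.486 to 2.76. In limma with Benjamini-Hochberg adjustment over all 22746 probe sets, 1 of 26 genes passed an adjusted p of 0.05 (3.85%), against 2.27% of all probe sets called and 0.844% called as higher. A single gene is too few to set the families apart from that background. With 8 arrays 0 of 26 passed, against 0.022% of all probe sets. At an unadjusted p under 0.05 were 2 of the 26 (7.69%), against 7.24% of all probe sets.

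BHLH101, a bHLH of the iron deficiency response whose gene is switched on when iron is short, was at 0.534 and 0.792 on the wild-type DMSO arrays and at 1.57 and 2.1 with BA. Both BA arrays lay above both DMSO arrays. The difference was 2.79-fold (log2 change 1.48 ± 0.27, SE, n = 2 arrays a group), and BHLH101 rose by the limma test (adjusted p = 0.0457 with 7 arrays). The call rests on every wild-type array: leaving each out in turn gave an adjusted p of 0.112 to 0.281, and with 8 arrays it was 0.912, at the same log2 change and a SE of 1.01.

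In the mutant, BHLH101 was at 1.12 on DMSO replicate 2, at 0.100 on replicate 1, and at 0.879 and 1.24 with BA. The BA arrays lay on either side of replicate 2. The BA effect was -0.10 ± 0.33 (95% interval -0.88 to 0.68). The test of the difference between the genotypes gave -1.58 ± 0.42, which did not pass (limma adjusted p = 0.207 with 7 arrays), and 0.16 ± 1.43 with 8 arrays.

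The other 4 bHLH genes belong to the same iron network in Arabidopsis. bHLH34, bHLH104 and bHLH115 act upstream of BHLH101 together with ILR3, and bHLH121 partners them. bHLH34 was at 0.987 and 1.01 with DMSO and at 0.802 and 0.725 with BA in wild type, a log2 change of -0.39 ± 0.17. bHLH121 went from 1.05 and 0.997 to 0.869 and 0.715, a log2 change of -0.37 ± 0.17. For both, the BA arrays lay below the DMSO arrays, and neither passed the limma test (adjusted p = 0.354 and 0.375 with 7 arrays). bHLH104 and bHLH115 differed by 0.29 ± 0.24 and 0.17 ± 0.13. Of 35 further genes of the iron deficiency response, 3 had a named probe set, and none passed for BA in wild type. PYE, a bHLH repressor of this response, differed by 0.09 ± 0.31 and ILR3 by -0.12 ± 0.15, on the log2 scale.

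Of the 14 bZIP genes none passed in wild type, with log2 changes of -0.33 to 0.74 and a median of -0.04, equal to the -0.04 of all probe sets. The largest difference was that of bZIP52, a group I bZIP. It was at 0.770 and 0.567 with DMSO and at 0.884 and 1.38 with BA, so the groups did not overlap. Its log2 change was 0.74 ± 0.25 (limma adjusted p = 0.219 with 7 arrays).

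Among the 3 endoplasmic reticulum stress factors, BZIP60, whose mRNA is spliced under such stress, was at 0.844 and 0.570 with DMSO and at 0.964 and 1.07 with BA. That was a log2 change of 0.55 ± 0.20 (limma adjusted p = 0.265 with 7 arrays). The membrane-bound BZIP17 and BZIP28 differed by -0.01 ± 0.14 and -0.02 ± 0.18. Of 31 further genes of the unfolded protein response 5 had a named probe set and none passed in any comparison, with log2 changes for BA in wild type of 0.11 to 0.47. These 5 include the chaperone gene CRT1b, a calreticulin (0.22 ± 0.15), and S1P, the protease that releases BZIP17 (0.14 ± 0.13).

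None of the 6 group S bZIPs passed, and 5 of them had values below 0. BZIP53, which activates amino acid breakdown under low energy, was at 0.997 and 1.00 with DMSO and at 1.02 and 1.82 with BA, so its log2 change of 0.45 ± 0.26 rests on BA replicate 2. bZIP44 went from 0.877 and 1.00 to 0.686 and 0.815 (-0.33 ± 0.15, limma adjusted p = 0.377 with 7 arrays). bZIP42, bZIP43, bZIP48 and bZIP58 differed by -0.05 to -0.14, and all 4 are among the genes given relative to a floor. bZIP19, which senses zinc, differed by -0.14 ± 0.15, and its relative BZIP24, known from salt stress, by 0.03 ± 0.13. The other members, BZIP34 and BZIP61, which form a pair of close relatives, differed by 0.01 ± 0.26 and -0.21 ± 0.23. Of the genes of zinc deficiency 2 (ZIP6 and ZIP9) and of low energy 1 (EXO) had a named probe set, and none passed in any comparison.

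None of the 5 WRKY genes passed in wild type, with log2 changes of -0.18 to 0.42. WRKY42, a repressor of the phosphate exporter gene PHO1 and a relative of WRKY6, was at 0.787 and 0.680 with DMSO and at 1.03 and 0.926 with BA. The BA arrays lay above the DMSO arrays, and the log2 change of 0.42 ± 0.16 did not pass (limma adjusted p = 0.280 with 7 arrays). WRKY6, known from senescence and phosphate nutrition, differed by 0.21 ± 0.27 with overlapping arrays. WRKY22, which acts in immunity downstream of pattern receptors, differed by -0.18 ± 0.20, WRKY20 by -0.07 ± 0.15 and WRKY47 by -0.13 ± 0.27. Of 29 genes of the phosphate starvation response 0 had a named probe set.

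NAC014 differed by -0.26 ± 0.14 in wild type, from 1.02 and 0.975 to 0.876 and 0.796. TCP15, a class I TCP that takes part in the leaf's answer to cytokinin in Arabidopsis, was at 0.994 and 0.797 with DMSO and at 0.756 and 1.05 with BA. Its arrays overlapped, and its log2 change was 0.00 ± 0.22 (95% interval -0.52 to 0.53).

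For 22 of the 26 genes the 95% interval of the BA effect in wild type lay within 1 log2 unit of no change, that is, it held no 2-fold difference. The 4 exceptions were BHLH101, bZIP52, BZIP53 and BZIP60. Over all probe sets tested 85.5% had such an interval. On the same arrays the type-A response regulators RR16 and ARR15, which damp cytokinin signalling, were 4.57-fold and 5.94-fold higher with BA (limma adjusted p = 0.00583 and 0.0349 with 7 arrays, 0.0324 and 0.164 with 8). Neither passed without either wild-type DMSO array, and the log2 change of ARR15 was 1.84 without BA replicate 1 and 3.30 without BA replicate 2.

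**Figure D2:**
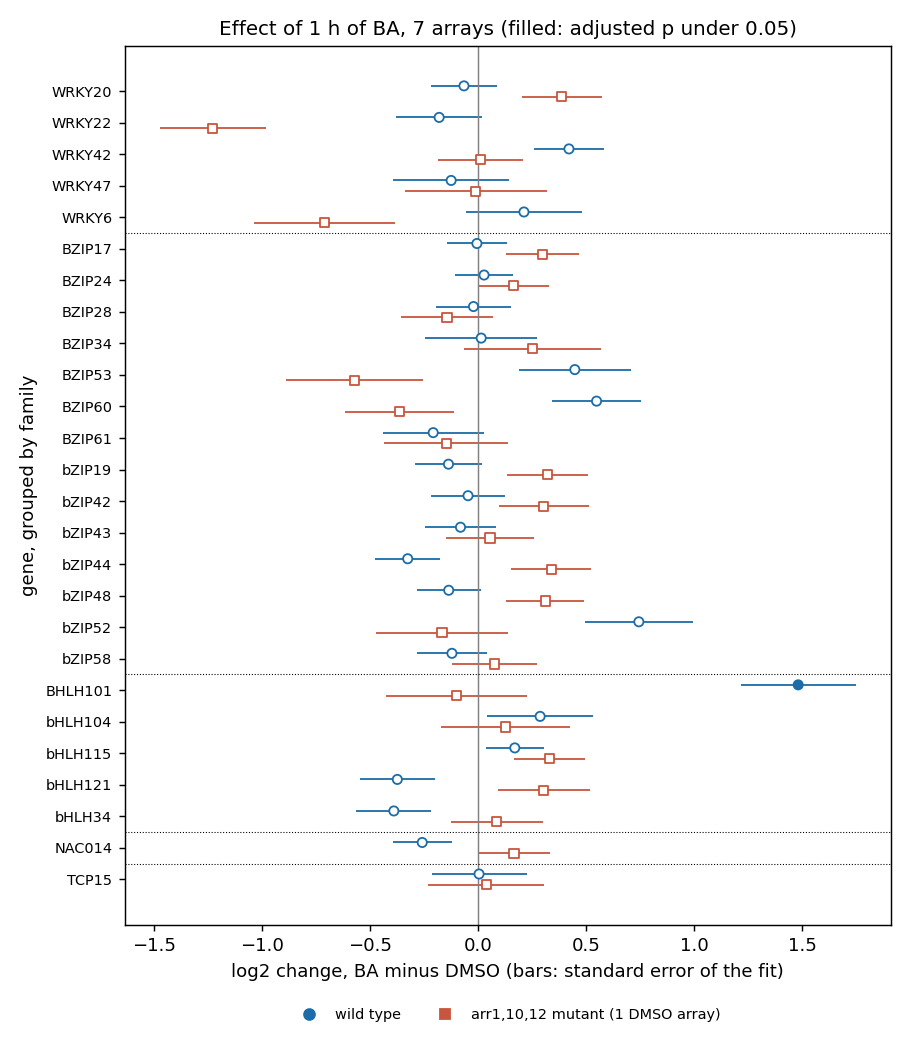
Log2 change with BA against DMSO of the 26 genes (rows) in wild type (circles) and in the mutant (squares, 1 DMSO array), from the 7-array fit, with bars for the standard error and filled symbols for an adjusted p under 0.05. BHLH101 in wild type, at 1.48, is the filled symbol. WRKY22 in the mutant, at -1.23, lies farthest to the left.

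The same treatment in the mutant asks which responses remain without the 3 regulators. No gene of the 26 passed with 7 arrays or with 8 (0 of 26 by limma in both), against 0.0352% and 0% of all probe sets. At an unadjusted p under 0.05 were 1 gene with 7 arrays (3.85%, against 6.47% of all probe sets) and 2 with 8 (7.69%, against 5.34%). Log2 changes ran from -1.23 to 0.39 with 7 arrays.

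WRKY22 was the gene with an unadjusted p under 0.05. It was at 2.76 on mutant DMSO replicate 2 and at 0.286 on replicate 1, and at 0.986 and 1.40 with BA. The 2 DMSO arrays thus lay on opposite sides of the BA arrays. The BA effect was -1.23 ± 0.25 with 7 arrays (limma adjusted p = 0.243) and 0.40 ± 0.93 with 8. With replicate 1 in place of replicate 2, more of the 26 genes passed. How many of all probe sets did so was not counted, so this does not set the 26 genes apart from the other probe sets. Without mutant BA replicate 2, WRKY22 passed at -1.48 (limma adjusted p = 0.0389).

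WRKY6 had the next lowest p. It was at 1.27 on mutant DMSO replicate 2, at 0.742 on replicate 1, and at 0.593 and 1.01 with BA, and its BA effect was -0.71 ± 0.33 (limma adjusted p = 0.824 with 7 arrays). In the other families the genes with the lowest p were bZIP44 (0.34 ± 0.19), bHLH115 (0.33 ± 0.16), NAC014 (0.17 ± 0.17) and TCP15 (0.04 ± 0.27), none of which passed.

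Between the genotypes, the BA effect differed past the threshold in 0 of the 26 genes with 7 arrays and in 0 with 8, by limma, against 0.453% and 0% of all probe sets. An unadjusted p under 0.05 was found for 6 genes with 7 arrays (23.1%, against 11.6% of all probe sets) and for 1 with 8 (3.85%, against 8.66%). Besides BHLH101, the lowest p-values were those of WRKY22 (-1.05 ± 0.32), BZIP60 (-0.91 ± 0.32), bZIP44 (0.66 ± 0.24), BZIP53 (-1.02 ± 0.41) and bHLH121 (0.68 ± 0.27), with limma adjusted p of 0.265 to 0.411 in the 7-array fit. The BA effect had opposite signs in the 2 genotypes for 16 of the 26 genes, a count not made over all probe sets. In each genotype 23 of the 26 effects were under 0.5 log2 units in size, and the mutant sign rests on 1 DMSO array. The test of the difference was less precise. For 10 of the 26 the 95% interval of the difference lay within 1 log2 unit of 0 with 7 arrays, against 60.7% of all probe sets. NAC014 differed by 0.43 ± 0.22 and TCP15 by 0.03 ± 0.35.

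BZIP60 was at 1.33 and 1.27 on the mutant DMSO arrays, which were close to each other and above both wild-type DMSO arrays. With BA it was at 0.944 and 1.04 in the mutant, within the wild-type BA range of 0.964 to 1.07 on replicate 2 and below it on replicate 1. The difference in BA effect was -0.91 ± 0.32 with 7 arrays and -0.95 ± 0.30 with 8, and did not pass in either (limma adjusted p = 0.345 and 0.493).

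The genotypes were also compared without and with BA. Both use wild-type arrays that also enter the first comparison. Under DMSO, 1 of 26 genes differed with 7 arrays (3.85%, against 4.22% of all probe sets called and 2.33% called as higher) and 0 of 26 with 8 (against 0.00879% of all probe sets), by limma. With 8 arrays 2 of the 26 had an unadjusted p under 0.05 (7.69%, against 13.5% of all probe sets). The gene was WRKY22, 2.50-fold higher on mutant DMSO replicate 2 (log2 change 1.32 ± 0.25, limma adjusted p = 0.0366), where it was at 2.76 against 1.01 and 1.21 in wild type. It was below wild type on replicate 1, at 0.286, so the log2 change was -0.31 with 8 arrays and -1.95 with replicate 1 alone. Leaving out each wild-type array in turn took the call away (adjusted p = 0.0774 to 0.152).

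The other families had no gene that passed under DMSO. The lowest p-values were those of NAC014 (0.60 ± 0.17) and BZIP60 (0.88 ± 0.25, and 0.91 ± 0.21 with 8 arrays, limma adjusted p = 0.117 and 0.193), followed by BZIP61 (0.96 ± 0.29) and bZIP52 (0.99 ± 0.31). With 8 arrays BZIP61 turned to -1.16 and bZIP52 and NAC014 were at 0.07 and 0.04. BHLH101 was at 1.12 on mutant replicate 2, above both wild-type DMSO arrays (0.79 ± 0.33, limma adjusted p = 0.256 with 7 arrays), and its difference was -0.96 with 8 arrays. TCP15 differed by 0.31 ± 0.27.

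Under BA, where both groups have 2 arrays, 4 of the 26 genes differed, all higher in the mutant: NAC014, BZIP61, bZIP44 and WRKY20. That was 15.4% of the 26, against 7.68% of all probe sets called and 4.12% called as higher, by limma with 7 arrays. In the same fit 11 of the 26 had an unadjusted p under 0.05 (42.3%, against 25.3% of all probe sets). With 8 arrays, in which the fold changes are identical, 0 of 26 passed, against 0.141% of all probe sets, and 3 had an unadjusted p under 0.05 (11.5%, against 13.2% of all probe sets). The median log2 change of the 26 was 0.33, with 18 of them above 0. Over all probe sets the median was 0.12 and 65.1% were above 0, so values here include a general shift. After quantile normalization, which took that shift to 0.03, the median of the 26 was 0.21 and 1 gene, NAC014, passed.

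NAC014 was at 0.876 and 0.796 in wild type with BA and at 1.79 and 1.61 in the mutant. Both mutant arrays lay above both wild-type arrays by a wide margin, and the difference was 2.03-fold (log2 change 1.02 ± 0.14, limma adjusted p = 0.00935 with 7 arrays, 0.307 with 8). Without any 1 array it stayed between 0.95 and 1.1, and it passed in all these fits but the one without wild-type BA replicate 2 (adjusted p = 0.0860). With DMSO the mutant was at 1.51 on replicate 2 and at 0.695 on replicate 1, the latter below wild type.

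BZIP61 was at 0.881 and 0.715 in wild type with BA and at 1.80 and 1.43 in the mutant, 2.02-fold higher (log2 change 1.02 ± 0.23, limma adjusted p = 0.0484 with 7 arrays). Its relative BZIP34 was at 0.715 and 0.672 against 1.34 and 0.869 (0.64 ± 0.26), with arrays that did not overlap, and did not pass (adjusted p = 0.186). Mutant DMSO replicate 2 had BZIP61 at 1.78, close to the BA-treated mutant, and replicate 1 had it at 0.0944, the lowest value of the 26 genes on any array.

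bZIP44, a group S bZIP, was at 0.686 and 0.815 in wild type with BA and at 1.28 and 1.24 in the mutant, 1.69-fold higher (log2 change 0.75 ± 0.15, limma adjusted p = 0.0323 with 7 arrays). WRKY20, at 0.982 and 0.921 against 1.71 and 1.39, was 1.62-fold higher (0.70 ± 0.15, adjusted p = 0.0402). For both, the wild-type and mutant arrays were clearly apart. bZIP44, BZIP61 and WRKY20 are calls close to the threshold: leaving out single arrays gave adjusted p of 0.0583 to 0.173 for bZIP44, 0.0521 to 0.265 for BZIP61 and 0.0258 to 0.234 for WRKY20, the last passing only without mutant BA replicate 2. With the replicate number as a block bZIP44 and WRKY20 did not pass (adjusted p = 0.0552 and 0.0710).

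Of the bHLH genes none passed under BA. bHLH121 was nearest (0.65 ± 0.17, limma adjusted p = 0.0726 with 7 arrays), at 0.869 and 0.715 in wild type and at 1.1 and 1.39 in the mutant. bHLH34 (0.57 ± 0.17) and bHLH115 (0.39 ± 0.13) were also above wild type on both arrays, bHLH104 was below it (-0.36 ± 0.24), and BHLH101 was at 0.879 and 1.24 against 1.57 and 2.1 in wild type (-0.80 ± 0.27, adjusted p = 0.126). TCP15 differed by 0.34 ± 0.22, with overlapping arrays. The feruloyl-CoA hydroxylase gene F6'H1 (AT3G13610), which makes coumarins when iron is short, was 2.82-fold lower in the mutant with BA (limma adjusted p = 0.0105 with 7 arrays, 0.123 with 8) and 2.37-fold lower with DMSO (adjusted p = 0.0480 with 7 arrays, 0.134 with 8). The call with BA was lost without wild-type BA replicate 2, and that with DMSO without any single wild-type array. It was at 1.26 to 2.2 on the 4 wild-type arrays and at 0.450 to 0.740 on the 4 mutant arrays.

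Of 18 root and root-hair genes 2 had a named probe set, the root-hair expansins EXPA7 and EXPA18. By the treatment protocol only shoots were kept, whereas the tissue label reads seedling. EXPA7 was at 1.16 to 1.84 on the 4 wild-type arrays and at 0.330 to 0.836 on the 4 mutant arrays, and EXPA18 at 1.09 to 1.91 and at 0.378 to 0.906. Neither passed in any comparison (with BA, limma adjusted p = 0.0699 and 0.121 with 7 arrays). Of 21 shoot photosynthesis genes 3 had a named probe set, and LHCB4.2 (1.56 ± 0.34) and RCA (0.62 ± 0.12), the activase of carbon fixation, were higher in the BA-treated mutant (limma adjusted p = 0.0407 and 0.0317 with 7 arrays, 0.374 and 0.463 with 8), whereas LHCB4.1 differed by -0.01. RCA lost its call without any single array and LHCB4.2 without any but wild-type BA replicate 1, and LHCB4.2 differed by 1.00 without wild-type BA replicate 2. The part of these markers in the differences of the 26 genes was not tested.

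**Figure D3:**
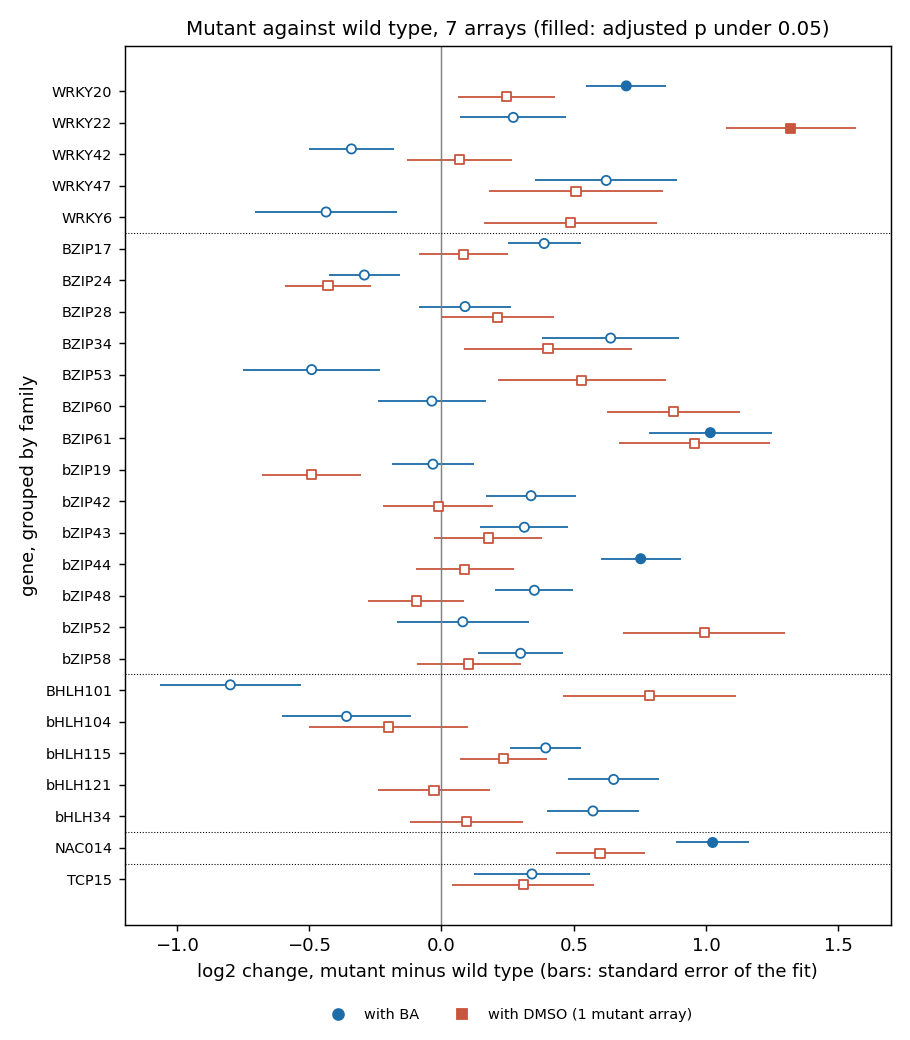
Log2 difference between mutant and wild type of the 26 genes (rows) with BA (circles, 2 arrays a group) and with DMSO (squares, 1 mutant array), from the 7-array fit, with bars for the standard error and filled symbols for an adjusted p under 0.05. With BA, NAC014, BZIP61, bZIP44 and WRKY20 are filled, at 0.70 to 1.02. With DMSO, WRKY22 is filled, at 1.32.

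Transcription factors of the same families under other symbols gave 21 genes with a named probe set, of 199 listed. With 7 arrays 1 of 21 rose with BA in wild type (0.844% of all probe sets did), none fell, and 1 differed between the genotypes in its BA effect (0.453% of all probe sets). With 8 arrays 0 of 21 passed in any comparison. The gene in both counts was ORA47, an AP2/ERF factor that switches on jasmonate synthesis. ORA47 was at 0.935 and 0.988 with DMSO and at 2.29 and 2.48 with BA in wild type, with no overlap, and was 2.48-fold higher (log2 change 1.31 ± 0.13, limma adjusted p = 0.00904 with 7 arrays, 0.270 with 8). This call was lost without either wild-type DMSO array and without wild-type BA replicate 2, at log2 changes of 1.25 to 1.35. In the mutant ORA47 was at 1.5 on DMSO replicate 2, at 0.790 on replicate 1, and at 0.965 and 1.01 with BA. Its BA effect differed between the genotypes by -1.91 ± 0.21 (limma adjusted p = 0.0257 with 7 arrays, 0.444 with 8), and it was 2.41-fold lower in the mutant with BA (adjusted p = 0.00460).

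Among these 21 genes, HAT2, an auxin-inducible homeobox gene, was the one that differed under DMSO (3.00 ± 0.43, limma adjusted p = 0.0184 with 7 arrays, 0.813 with 8). It was at 0.809 and 0.598 in wild type, at 5.55 on mutant replicate 2 and at 0.236 on replicate 1, and with replicate 1 in place of replicate 2 it was lower in the mutant, by -1.56. The bHLH genes ALC (-0.58 ± 0.16) and SPT (0.41 ± 0.14), which act in fruit development, and HYH (-0.71 ± 0.22), a bZIP of light signalling, had the next lowest p for BA in wild type, and did not pass (limma adjusted p = 0.146 to 0.213 with 7 arrays). Of 40 genes of the early cytokinin response 5 had a named probe set. With BA, 3 of these (RR16, ARR15 and the glucosyltransferase gene UGT76C2) were lower in the mutant by limma with 7 arrays. Over all 22746 probe sets, 810 were called lower and 937 higher. SPY, whose product works with TCP15, was higher in the mutant, at 1.22 and 1.32 against 0.781 and 0.784 (0.70 ± 0.14, limma adjusted p = 0.0317 with 7 arrays). With 8 arrays RR16 passed in this comparison (adjusted p = 0.0159) and ARR15, UGT76C2 and SPY did not (0.146, 0.157 and 0.389).

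Of 35 genes of pattern-triggered immunity and senescence 4 had a named probe set. None passed for BA in either genotype. SAG29, a sugar transporter of senescing leaves, was higher in the mutant with BA (3.35 ± 0.40, limma adjusted p = 0.00657 with 7 arrays) and with DMSO (2.41 ± 0.48), and the immune regulator SAG101 with DMSO (1.69 ± 0.25). With 8 arrays none of these 3 differences passed (limma adjusted p = 0.180, 0.462 and 0.444). Like WRKY22, SAG29 and SAG101 were far higher on mutant DMSO replicate 2 (4.88 and 2.89) than on replicate 1 (1.07 and 0.983). With replicate 1 in place of replicate 2, their differences under DMSO were 0.22 and 0.14 on the log2 scale. Neither of these DMSO differences passed in the 7-array fit when 1 wild-type DMSO array was left out.

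**Figure D4:**
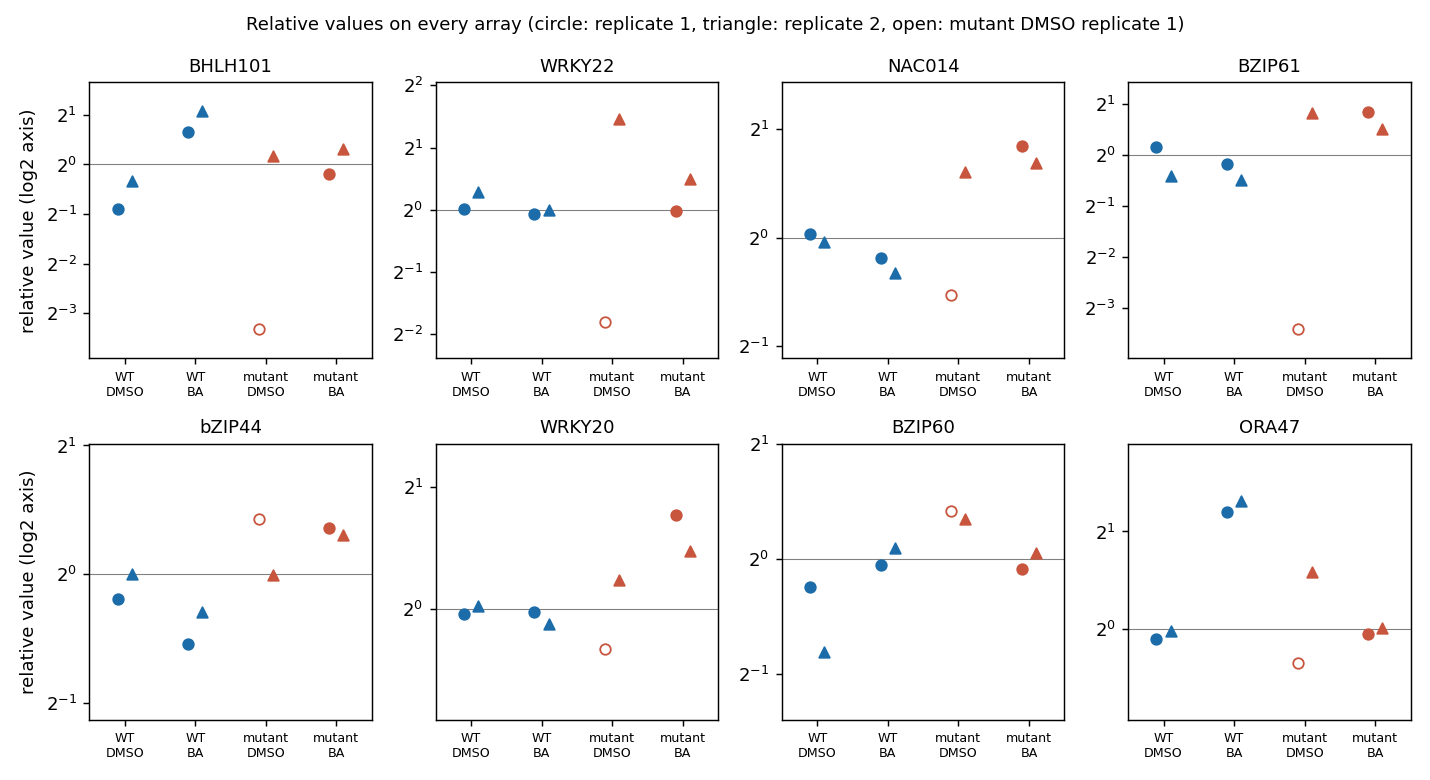
Relative value (log2 axis, a scale per panel) on every array of the 6 genes that passed in any comparison, of BZIP60 and of ORA47, with wild type in blue, the mutant in red, circles for replicate 1 and triangles for replicate 2. The open circle is mutant DMSO replicate 1. BHLH101 and ORA47 rise with BA in wild type, whereas NAC014, BZIP61, bZIP44 and WRKY20 separate the BA-treated genotypes.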

How the data were processed

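The authors' deposited values are linear ratios, a unit inferred from the values, since in 70.1% of the 22810 rows the 8 arrays' median is 1 within 0.005. How probes were summarised, background-corrected and scaled is not given in the sources used here. Groups and replicate numbers came from the titles, and all 8 columns were mapped. The 64 control probe sets were left out, and 22746 were tested with limma 3.58.1 (R 4.3.3) on log2 of the deposited ratio without an offset, with 1 mean per group, empirical Bayes moderation and Benjamini-Hochberg adjustment over all 22746. The first fit used 7 arrays (3 residual degrees of freedom) and the second all 8 (4). The number of arrays limits the precision. All 26 genes were found in the RefSeq table of TAIR10.1 under the same symbols.

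The members, the lists of other genes and the 7-array fit were chosen with earlier results of these data known. Lists of other transcription factors, their partners, root genes and shoot genes came first. The only gene of the partner list with a named probe set was WRKY53, the WRKY left out of the 26, so no partner was examined. WRKY53 did not pass in any comparison. Lists of iron, zinc, phosphate, low energy, unfolded protein, immunity and cytokinin genes were added when the 26 symbols were known. Named were the genes called, up to 12 in each direction, and in a family without a call the one with the lowest p. Other members were added to cover all 26.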

Additional observations from a re-analysis of the deposited data

Results flagged for a closer look

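The BA effect differed between the genotypes, by the interaction term of the 7-array limma fit, in 2 of the genes named, neither of them among the 26. ORA47 differed by -1.91 on the log2 scale (adjusted p = 0.0257) and RR16 by -2.13 (adjusted p = 0.0350). With 8 arrays neither passed (limma adjusted p = 0.444 and 0.167). Neither passed when any 1 wild-type array was left out (adjusted p = 0.0744 to 0.159 for ORA47 and 0.0941 to 0.189 for RR16). The mutant side of both differences rests on the 1 DMSO array of replicate 2. With replicate 1 in its place ORA47 differed by -0.99 and RR16 by -2.06, and both passed (adjusted p = 0.0190 and 0.00414).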

How the results depend on the processing

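The counts of the 26 genes that passed depended on the arrays used. The count for BA in wild type, 1, was 0 with all 8 arrays, with an offset of 1 or 32 added to the ratios and with array weights, and 0 to 1 when single arrays were left out. The counts of 0 for BA in the mutant and for the difference between the genotypes became 11 and 8 when replicate 1 stood for the DMSO-treated mutant, and were 0 to 1 and 0 to 0 without single arrays. Under DMSO the count of 1 became 0 with 8 arrays, the replicate block, quantile normalization, array weights or a trended robust fit, 9 with replicate 1 in place, and 0 to 1 without single arrays. Under BA the count of 4 became 0 with 8 arrays, 1 with both groups alone or quantile normalization, 2 with an offset of 32 or a trended robust fit, and 0 to 3 without single arrays. With replicate 1 in place, the share of all probe sets that passed was not counted. The higher counts of the 26 in that setting therefore cannot set these genes apart from the other probe sets. Replicate 1 lay over 2-fold away from replicate 2 in 17.9% of probe sets. WRKY22 under DMSO reversed to -0.31 with 8 arrays, to -0.31 with array weights and to -1.95 with replicate 1 in place, where HAT2 reversed to -1.56. The cause was not tested. Replicate numbers were not shown to pair the samples (correlations of same-numbered deviations of -0.17, -0.05 and -0.17). With the replicate block the counts were 1, 0, 0, 0 and 3, in the order above. The 3 under BA were NAC014 and BZIP61, higher, and BHLH101, lower, whereas bZIP44 (adjusted p = 0.0552) and WRKY20 (0.0710) were not called. The lowest-mean probe set gave the same counts, since no gene has more than 1, and both groups alone cannot give the difference between genotypes. The planned search of promoters for motifs was not run.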
